A study of Mus musculus with 2 samples.

Results

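The cells described here are barcodes that carry the RNA of ventricular cardiomyocytes, the contracting muscle cells of the heart's main pumping chambers, and little mitochondrial RNA. They were chosen on measured values. Ttn, Myh6, Ryr2 and Tnnt2 together had to give at least 2.5% of the unique molecular identifiers (UMIs, each standing for 1 captured RNA molecule) outside mitochondrially encoded genes. Mitochondrially encoded genes had to give under 10% of all UMIs, and the atrial genes Myl7, Sln, Bmp10 and Sbk2 had to give 0. The rule took 4633 of 26178 barcodes. Of these, 4067 came from the 16060 barcodes of the library labelled wild-type (25.3%, 95% exact binomial interval 24.65 to 26.0) and 566 from the 10118 of the library labelled p53 knockout (5.59%, 5.15 to 6.06). All intervals below are 95% intervals of the counting error alone and hold nothing of the spread between hearts.

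Each library was made from 3 mouse hearts mixed into 1 sample, from the left ventricle 6 weeks after transverse aortic constriction (TAC), an operation that narrows the aorta and so puts this chamber under pressure load. One group was wild-type and the other p53 knockout, p53 being the stress-activated transcription factor encoded by Trp53. Both groups had the surgery, so no unloaded heart was compared. The labels used here give no strain, age, sex or knockout allele, and do not say whether the deletion was restricted to a cell type. With 1 library per group no test over animals was possible, and the values below compare 2 libraries.

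Cardiomyocytes contract through sarcomeres, in which myosin thick filaments pull on actin thin filaments anchored at Z-discs, and the giant protein titin spans from the Z-disc to the middle of the sarcomere. They draw most of their energy from fatty acid oxidation in densely packed mitochondria. Under sustained pressure load these cells enlarge, and genes of the fetal heart such as the natriuretic peptides, beta myosin heavy chain and skeletal alpha-actin are known to be switched on again in rodents, while genes of fatty acid oxidation are known to decline.

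The gate held 5789725 UMIs under the wild-type label and 1640314 under the knockout label. A barcode had a median of 1033 and 1576 UMIs and of 628 and 834 detected genes. The median mitochondrial share was 2.09% and 1.07%. No barcode of the gate occurred in both libraries, although 105 barcodes did over all. Levels are given as UMIs per 1000000 UMIs outside mitochondrially encoded genes (CPM), summed over the gate. Ratios are log2 of the knockout-labelled level over the wild-type-labelled level, with 0.5 UMI added to each sum, so that 1 stands for a 2-fold higher level under the knockout label. The 2 levels of a gene are given in the order wild-type label, knockout label. The sum over the gate cannot tell fewer cells of a kind from less RNA per cell.

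The libraries went against their labels or stood apart in 3 ways that touch every result. Trp53 was at 29.4 CPM (166 UMIs) and 22.9 CPM (37 UMIs) in the gate, a log2 ratio of -0.35 (-0.92 to 0.16), so its RNA was not detectably lower under the knockout label at this depth. Which exons were deleted is not given, and 3' counts cannot tell RNA of a shortened transcript from that of the intact one. Xist, the RNA of the inactive X chromosome of female cells, was at 3.71 and 681 CPM, while the Y-linked Uty was at 263 and 6.18 CPM and Ddx3y at 151 and 0.618 CPM. Sex and genotype label can therefore not be told apart. Among barcodes below the 2.5% threshold, the 4 rule genes took a median of 0.517% of UMIs under the wild-type label and 0.0766% under the knockout label. Cardiomyocyte RNA outside the gate was thus more abundant under the wild-type label, and the part of this in the results was not tested.

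Just below the threshold, at 2 to 2.5%, lay 549 and 52 barcodes, and just above it, at 2.5 to 3%, lay 494 and 46. In these ranges 20 other cardiomyocyte genes took 2.0% and 3.21% of UMIs below the threshold and 2.27% and 3.11% above it. At the mitochondrial limit, 72 and 15 barcodes had a share of 8 to 10%, and 61 and 9 had 10 to 12%. Exactly 1 atrial UMI kept 17 and 19 barcodes out.

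Cardiomyocyte markers that the rule did not use were present. Tnni3k, a cardiac kinase, was at 1059 and 998 CPM, and Mhrt, a noncoding RNA from the Myh6 and Myh7 locus, at 1423 and 858 CPM. Of the 20 other cardiomyocyte markers all were detected in both libraries, summing to 27222 and 39632 CPM, against 10097 and 5241 CPM below the threshold. Under the wild-type label Mb (823 against 930 CPM) and Cox6a2 (322 against 354 CPM) were lower in the gate than below the threshold, and the other members were not. Of 8 ventricular markers all were detected too. Myl2, the ventricular regulatory light chain, was at 1375 and 1080 CPM, and Irx4, a ventricular transcription factor, at 24.6 and 16.7 CPM. Outside the 4 genes set to 0 by the rule, atrial Myl4 reached 5.84 and 29.6 CPM, from 33 and 48 UMIs. The whole list of 15 atrial markers, those 4 and Nppa included, summed to 832 and 2102 CPM. Below the threshold it summed to 816 and 2236 CPM, so atrial markers as a list were about as high in the gate as outside it. The 13 conduction markers summed to 213 and 219 CPM, of which the pacemaker channel Hcn4 had 26 and 3 UMIs and Isl1 had 0 and 1.

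Markers of other cell types were present in most barcodes. Of the gate, 94.8% and 95.9% of barcodes held 2 or more UMIs of 101 such markers. These gave 0.664% and 0.422% of UMIs outside mitochondrial genes. The 13 fibroblast markers summed to 2223 and 1153 CPM in the gate, against 10328 and 9997 CPM in barcodes below the threshold, and the 12 endothelial markers to 1502 and 857 CPM, against 5825 and 6702 CPM. The 12 macrophage markers summed to 373 and 217 CPM, against 1737 and 1582 CPM below the threshold. The 8 pericyte markers summed to 616 and 272 CPM, against 1205 and 652 CPM. None of these 4 lists had a member at 0 in either library, while Cd3d and Nkg7 of the lymphoid list were at 0 in both. The 6 haemoglobin and red cell genes went the other way, with 372 and 1251 CPM. Endocardial markers summed to 1165 and 1214 CPM, against 2492 and 3149 CPM below the threshold. Lymphatic markers summed to 222.1 and 186.5 CPM, against 585 and 812 CPM, and lymphoid markers to 373 and 139 CPM, against 1510 and 1259 CPM. Smooth muscle markers, which include Pln, summed to 3238 and 1803 CPM, against 876 and 527 CPM. Neutrophil, mesothelial, adipocyte and Schwann cell markers each stayed under 100 CPM. The part of such RNA in the results was not tested gene by gene. No doublet caller was run, and barcodes with UMIs of other cell types and those with the highest totals were left out as alternatives.

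Among all 7045 genes at a mean of 20 CPM or more over both libraries, leaving out the rule genes and mitochondrially encoded genes, 193 (2.74%) were at least 2-fold higher in the library labelled p53 knockout and 715 (10.1%) at least 2-fold lower. The median log2 ratio over all tested genes was -0.25. With median-of-ratios scaling every ratio is higher by the size of this median, and the counts become 332 and 383. There were 1080 genes whose gate level in the higher library was at least 2 times that of the barcodes below the threshold. Their median was 0.000799, with 103 genes (9.54%) at least 2-fold higher and 131 (12.1%) at least 2-fold lower. Cardiomyocyte RNA below the threshold was scarcer under the knockout label, so cardiomyocyte genes higher under that label passed this limit more readily. Myl3, at 1.22 and 2.35 times, passed through the knockout label. Myl2, at 1.58 and 3.07 times but higher under the wild-type label, did not pass. The counts of list members below are to be read against these shares. They describe 2 libraries, and some genes stand in more than 1 list.

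**Figure D1:**
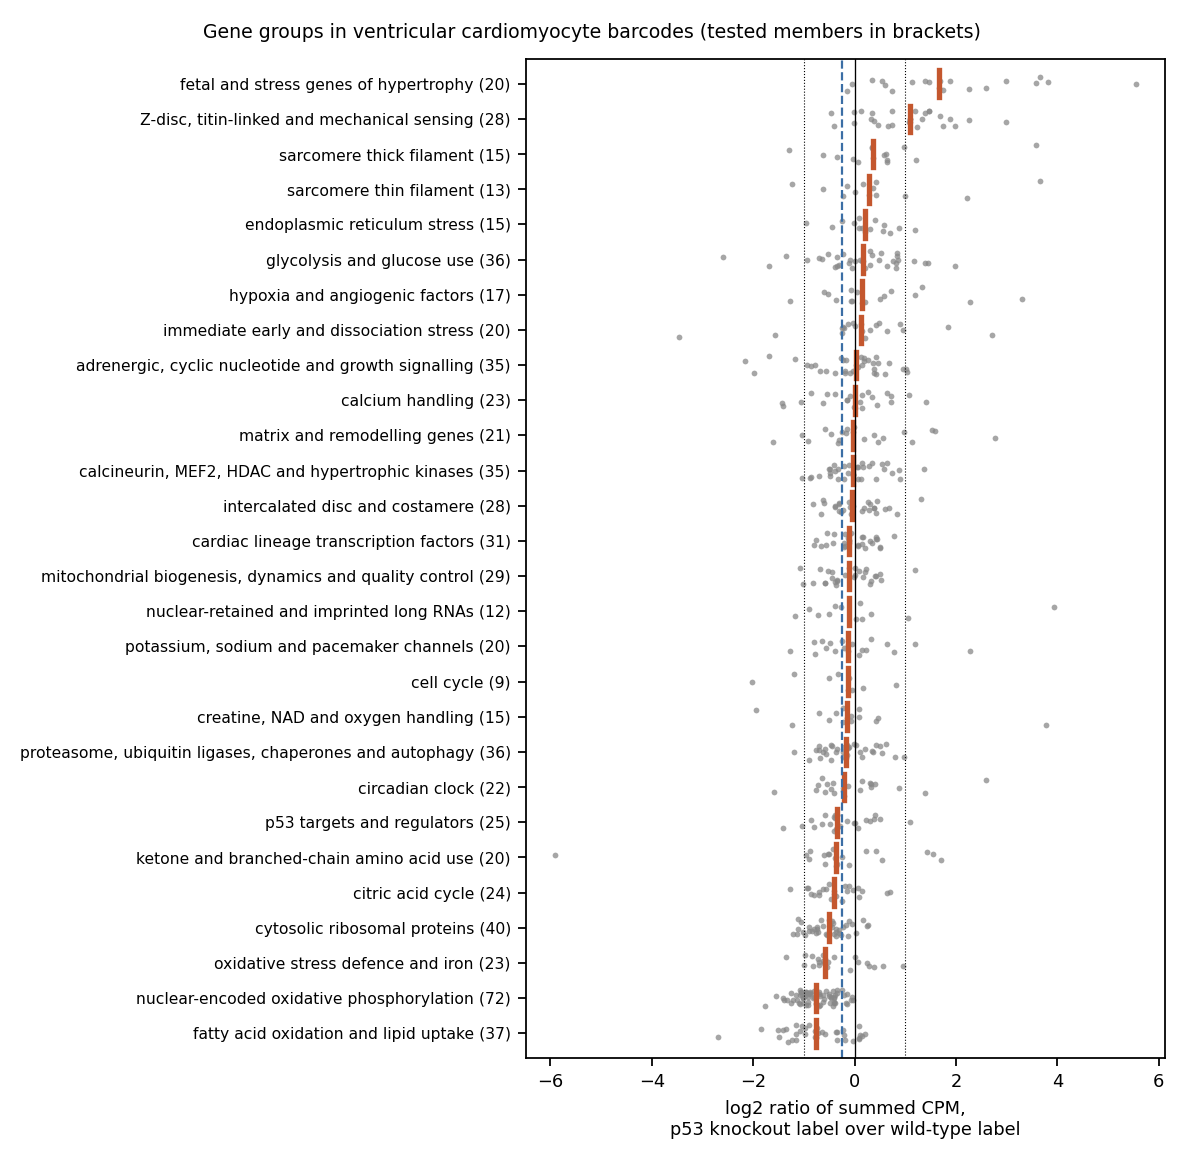
Log2 ratios of single genes (grey points) and the median (red bar) for 28 gene groups in the gate, positive where the library labelled p53 knockout was higher. The blue dashed line is the median of all 7045 tested genes (-0.25), dotted lines mark 2-fold, and only the fetal and stress group and the Z-disc group have medians beyond 2-fold.

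The fetal and stress genes of hypertrophy stood highest. Of 26 genes listed, 24 were in the files and 20 reached 20 CPM, of which 14 were at least 2-fold higher in the library labelled p53 knockout and 0 at least 2-fold lower. Their median log2 ratio was 1.67, against -0.25 over all tested genes. The 4 members under the minimum were Ankrd2 (12 and 0 UMIs), Acta2 (54 and 21), Mybphl (4 and 4) and Uchl1 (11 and 12). A gene high in only 1 library passes the minimum more readily, so the count over tested members overstates the whole list.

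The natriuretic peptide genes Nppa and Nppb encode hormones that the loaded heart releases to relax vessels and promote salt loss. Nppb (ENSMUSG00000029019; chromosome 4, 147985788 to 147987205, mm10) was at 53.1 CPM (47.2 to 59.4) under the wild-type label and 744 CPM (703 to 788) under the knockout label, a log2 ratio of 3.81 (3.63 to 4.0). Nppa, on the same chromosome at 148000722 to 148002079, was at 12 CPM (9.34 to 15.3) and 565 CPM (529 to 603), a log2 ratio of 5.54 (5.20 to 5.93). For neither gene did the intervals of the libraries overlap, but how many of all tested genes share this is not given here. These intervals also leave out the spread between barcodes. Under the knockout label 46.6% of the Nppa UMIs came from 10 of 566 barcodes. Nppa was, however, at 744 CPM in the barcodes below the threshold of the library labelled p53 knockout, above its level in the gate. Nppb was at 168 CPM there, well under its gate level.

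Contractile isoforms of the fetal heart were higher as well. Myh7, the slow beta myosin heavy chain (ENSMUSG00000053093; chromosome 14, 54970684 to 54994626), was at 162 CPM (151 to 173) and 1926 CPM (1859 to 1995), a log2 ratio of 3.57 (3.47 to 3.68). The adult isoform Myh6, which the rule used, was at 13179 and 13803 CPM. Acta1, skeletal alpha-actin (chromosome 8, 123891769 to 123894751), was at 26.7 and 338 CPM, a log2 ratio of 3.66 (3.40 to 3.93), whereas the cardiac isoform Actc1 was at 985 and 886 CPM. Among barcodes below the threshold Acta1 reached 36.4 and 200 CPM and Myh7 67.6 and 161 CPM. Tpm2, a tropomyosin of skeletal and smooth muscle, was at 10.6 and 49.4 CPM, from 60 and 80 UMIs.

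Sequences before the starts of the 4 members with the highest ratios are shown so that the region before each gene's start can be read beside its level. They are the 250 bases before the start in RefSeq (GRCm38.p6, first listed start), written 5′ to 3′ on the gene's strand, except for Nppb. There 30 bases are shown, since part of the window, these bases included, lies within the gene as GENCODE draws it. Capitals mark matches on either strand to the motifs CATTCC (the MCAT element bound by TEAD factors), GATAA (bound by GATA factors) or the CArG box (bound by SRF).
Nppa, chr4:148000472-148000721, plus strand: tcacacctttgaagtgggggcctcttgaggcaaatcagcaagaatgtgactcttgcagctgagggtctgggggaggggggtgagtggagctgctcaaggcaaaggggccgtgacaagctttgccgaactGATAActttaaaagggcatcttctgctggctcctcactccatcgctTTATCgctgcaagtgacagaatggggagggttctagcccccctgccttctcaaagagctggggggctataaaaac
Nppb, chr4:147985793-147985822, plus strand: caGGAATGcagctGATAAatcagaGATAAc
Acta1, chr8:123894776-123895025, minus strand: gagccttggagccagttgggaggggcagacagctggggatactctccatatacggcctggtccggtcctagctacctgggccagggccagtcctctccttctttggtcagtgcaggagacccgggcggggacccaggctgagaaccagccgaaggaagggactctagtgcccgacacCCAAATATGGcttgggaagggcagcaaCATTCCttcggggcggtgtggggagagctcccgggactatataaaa
Myh7, chr14:54994627-54994876, minus strand: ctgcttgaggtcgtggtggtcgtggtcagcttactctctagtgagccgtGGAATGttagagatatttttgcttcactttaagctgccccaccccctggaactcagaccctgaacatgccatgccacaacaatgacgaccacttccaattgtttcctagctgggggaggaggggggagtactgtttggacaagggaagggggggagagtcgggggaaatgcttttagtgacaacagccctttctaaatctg

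CATTCC was found in Nppb, Acta1 and Myh7, and in 12.6% of all 32851 promoter windows of that length. GATAA was found at 2 places in both Nppa and Nppb, and in 22.6% of all windows. The CArG box occurred in Acta1 (written CCAAATATGG there) and in 1.47% of all windows. Over the 18 of 20 tested list members with a window, CATTCC occurred in 5, GATAA in 5 and the CArG box in 3. The MEF2-type motif CTAAAAATA occurred in none of the 4, in 1 of the 18 and in 0.469% of all windows. A p53 half-site occurred in Nppb outside the bases shown, in 1 of the 18 and in 7.13% of all windows. Matches are letters in a window and do not show binding.

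Other members act in the cytoskeleton or are secreted. Ankrd1, a titin-binding repressor of transcription (ENSMUSG00000024803), was at 224 CPM (211 to 236) and 1770 CPM (1706 to 1836), a log2 ratio of 2.98 (2.89 to 3.08). Flnc, the muscle filamin that crosslinks actin at the Z-disc, was at 91.3 and 439 CPM, and Xirp2, an actin-binding repair protein of the intercalated disc, at 540 and 1735 CPM. Ccn2 and Ccn1, secreted matricellular targets of the YAP pathway, were at 71.6 and 433 CPM and at 73.1 and 230 CPM. Both CCN genes also had high ratios in barcodes below the threshold, of 3.10 and 2.33. Members near a ratio of 0 were Tuba8 (-0.05), Actc1 (-0.15) and Myh7b (0.35).

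**Figure D2:**
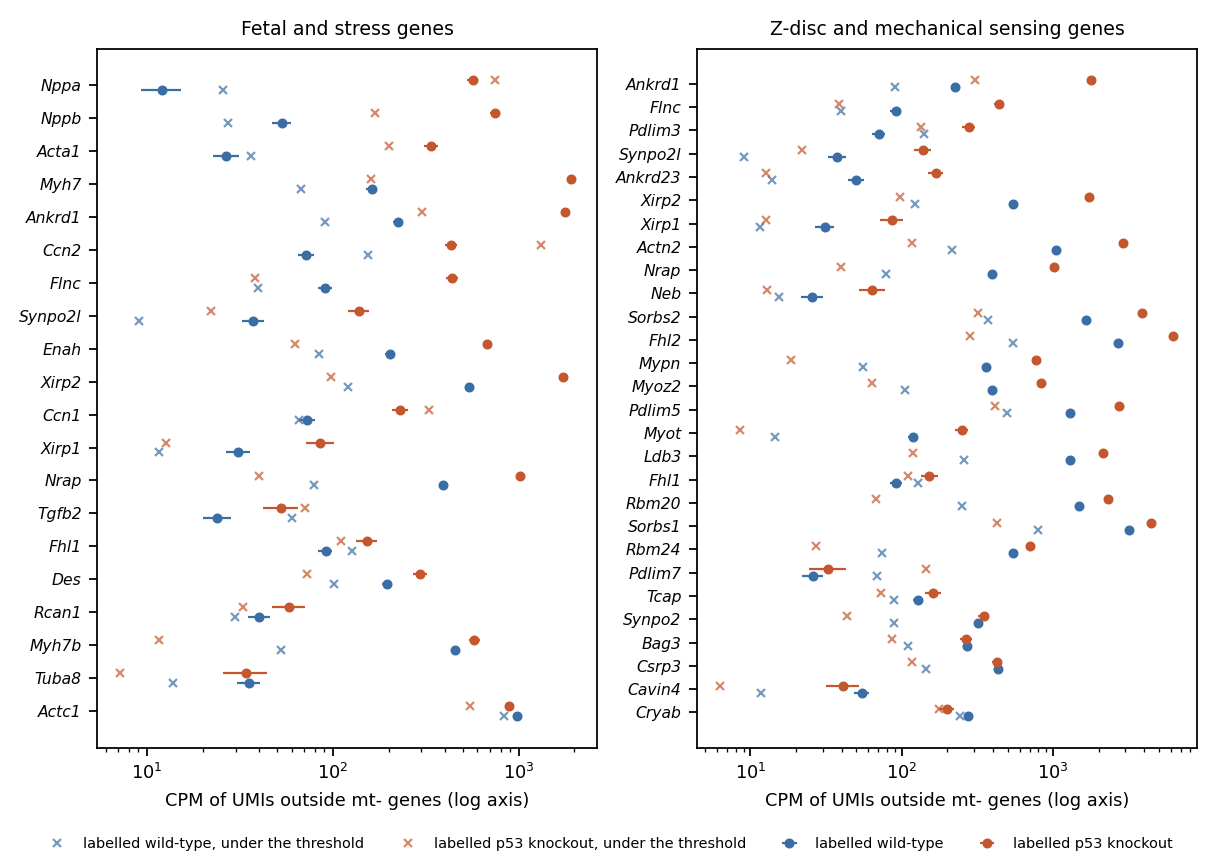
Summed level (CPM of UMIs outside mitochondrial genes, log axis) of each tested fetal and stress gene (left) and Z-disc gene (right) in the gate, as dots with exact Poisson 95% intervals, and in barcodes below the threshold, as crosses. The dots of Nppb, Myh7 and Ankrd1 lie far apart between the libraries, and the Nppa cross of the library labelled p53 knockout (744 CPM) lies above its dot (565 CPM).

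These genes were spread over many barcodes under the knockout label, though unevenly. To set depths aside, each barcode was thinned to 500 UMIs outside mitochondrial genes, which kept 4029 and 558 barcodes and left out 38 and 8. A Myh7 UMI was then seen in 6.95% of barcodes (6.18 to 7.78) and in 37.8% (33.8 to 42.0), and without thinning in 15.4% and 54.8%, at median depths of 1033 and 1576 UMIs. Below the cardiomyocyte threshold the thinned Myh7 shares were 3.04% and 6.45%, at median depths of 906 and 1531 UMIs. Nppb gave 1.86% (1.47 to 2.33) and 19% (15.8 to 22.5), against 1.23% and 4.67% below the threshold. For Ankrd1 the shares were 8.02% and 33.9%, against 3.80% and 9.29%. Nppa differed: its 15.1% under the knockout label (12.2 to 18.3) held the 13% found below the threshold within its interval, and its 0.546% under the wild-type label was lower than the 0.999% found there. The Nppa shares of the gate thus did not exceed those outside it beyond counting error, although Nppa is counted in the list above.

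Nppa UMIs were also concentrated. Of its 915 UMIs under the knockout label, 176 came from 1 barcode and 46.6% from 10 of 566 barcodes. For Myh7 the 10 highest barcodes held 25.6% of 3118 UMIs, for Ankrd1 21.3% of 2865, and for Nppb 21.2% of 1205. With 1 or more UMI in 202 to 319 barcodes each, these 4 genes were not confined to the few highest.

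Summed over the list's genes, a barcode thinned to 500 UMIs held a mean of 1.87 fetal and stress UMIs under the wild-type label and 6.17 under the knockout label, with medians of 1 and 4.5. No such UMI was found in 23.4% and 6.45% of barcodes, and 10 or more in 0.348% and 17.2%. The 2 distributions overlapped over the low counts, and the upper tail was mostly of the library labelled p53 knockout. In the same barcodes the fibroblast markers gave means of 1.34 and 0.867 UMIs.

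**Figure D3:**
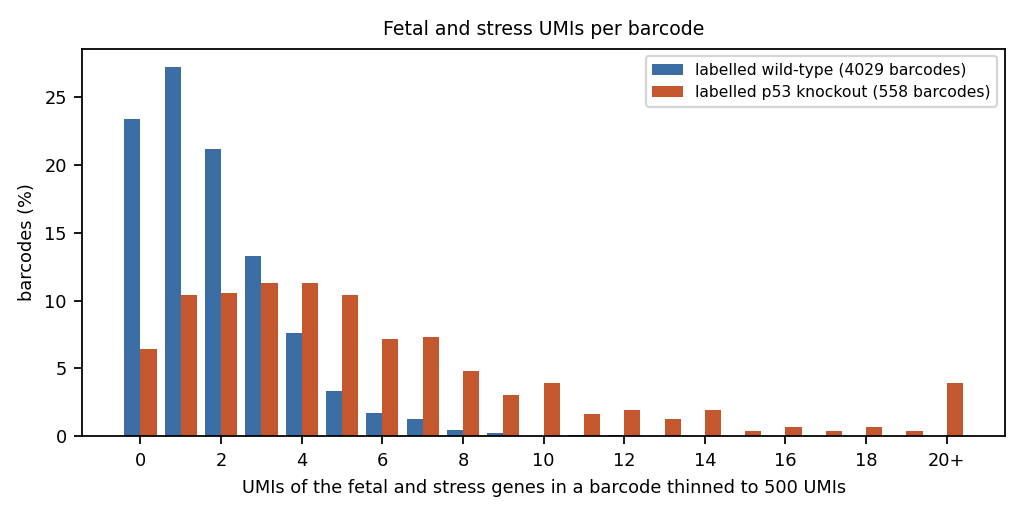
Share of barcodes (%) by the number of fetal and stress UMIs they held after thinning to 500 UMIs, for 4029 barcodes of the wild-type label and 558 of the knockout label. The last bar pools 20 or more, and barcodes with 0 were 23.4% and 6.45%.

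Pairs of these genes met in a barcode both more and less often than the product of their shares gives. For 8 genes, the others being Xirp2, Fhl2 and Actn2, 28 pairs were counted at 1000 UMIs, of which 20 lay above the product under the wild-type label and 19 under the knockout label. At 1000 UMIs, 371 barcodes remained under the knockout label. Of these, 189 had Myh7, 199 had Ankrd1 and 122 had both, while the product of the shares gives 101. Nppb and Ankrd1 met in 91 against 74.0, and Nppa and Nppb in 50 against 33.5. Myh7 and Acta1 met in 42 against 43.3, Nppa and Actn2 in 69 against 78.6, and Nppa and Xirp2 in 45 against 54.6. Under the wild-type label, of 2058 barcodes, 219 had Myh7, 272 had Ankrd1 and 34 had both, against 28.9. Barcodes of 1 library share its free RNA, and these values carry no test.

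Genes of the Z-disc and of mechanical sensing formed the second group above 2-fold. All 28 tested of 29 in the files are shown in the plot of levels, and 16 were at least 2-fold higher in the library labelled p53 knockout, with 0 at least 2-fold lower and a median of 1.08. Ankrd1, Flnc, Xirp1, Xirp2, Nrap, Synpo2l and Fhl1 also stand in the fetal and stress list. Actn2, the alpha-actinin that crosslinks actin at the Z-disc, was at 1049 CPM (1022 to 1076) and 2897 CPM (2815 to 2981), a log2 ratio of 1.47. Fhl2, a LIM protein bound to titin, was at 2705 and 6182 CPM (1.19, 1.16 to 1.23), and Sorbs2, an adaptor of the Z-disc, at 1647 and 3842 CPM (1.22). Pdlim5, a scaffold that carries kinases to the Z-disc, was at 1293 and 2737 CPM (1.08).

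Some Z-disc genes differed little or were lower. Csrp3, a LIM protein held to sense stretch, was at 431 and 424 CPM, and Bag3, a co-chaperone of the Z-disc, at 268 and 267 CPM. Cryab, a small heat shock protein, was lower under the knockout label, at 274 and 198 CPM (-0.47, -0.65 to -0.30). In barcodes below the threshold the list's median was -0.34. An Actn2 UMI was seen in 33.4% of thinned barcodes (31.9 to 34.8) and in 63.1% (58.9 to 67.1), against 9.14% and 4.84% below the threshold.

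Thick and thin filament genes differed less. Of 15 tested thick filament genes 2 were at least 2-fold higher and 1 at least 2-fold lower, with a median of 0.36. The 2 were Myh7 and Mybpc3, the cardiac myosin-binding protein C, at 886 and 2040 CPM (1.20, 1.14 to 1.27). Mylk4, a myosin light chain kinase, was at 180 and 73.5 CPM (-1.29). Myom1, an M-band protein, was at 1823 and 2717 CPM. Of 13 thin filament genes 2, Acta1 and Tpm2, were at least 2-fold higher, and Lmod3, a nucleator of actin filaments, was at 55.7 and 23.5 CPM. Tnni3, cardiac troponin I, was at 1245 and 808 CPM (-0.62), and Tnnc1, cardiac troponin C, at 543 and 1084 CPM, just under 2-fold.

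Genes of the cell surface and of calcium release went both ways. The intercalated disc and costamere median was -0.054, against -0.25 over all tested genes. Dmd, dystrophin, which ties the cytoskeleton to the membrane, was at 4612 CPM (4556 to 4668) and 11346 CPM (11182 to 11511), a log2 ratio of 1.30, and was the only 1 of 28 intercalated disc and costamere genes beyond 2-fold. Gja1, the main ventricular gap junction protein, was at 445 and 253 CPM (-0.81, -0.97 to -0.66). Of 23 tested calcium handling genes 2 were at least 2-fold higher and 3 at least 2-fold lower, with a median of 0.0012. Slc8a1, the sodium-calcium exchanger that removes calcium from the cell, was at 3172 and 8367 CPM (1.40, 1.37 to 1.43). Jph2, which holds the calcium release site together, was at 191 and 403 CPM (1.08). Pln, the inhibitor of the calcium pump, was at 3192 and 1757 CPM (-0.86, -0.92 to -0.80), and Hrc, a calcium-binding protein of the store, at 200 and 74.1 CPM (-1.43). The pump itself, Atp2a2, was at 3615 and 3370 CPM.

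Of 20 tested potassium, sodium and pacemaker channel genes 2 were at least 2-fold higher and 1 at least 2-fold lower, with a median of -0.13. Fgf12, a modulator of sodium channels, was at 9.91 and 48.2 CPM, and Abcc9, a subunit of the ATP-sensitive potassium channel, at 417 and 173 CPM (-1.27). Abcc9 is also a pericyte marker, with 458 and 194 CPM below the threshold. Kcnd2, the transient outward channel, was at 1041 and 667 CPM.

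Genes of fatty acid oxidation and lipid uptake were lower under the knockout label. Of 37 tested of 42, 13 were at least 2-fold lower and 0 at least 2-fold higher, with a median of -0.76 against -0.25 over all tested genes. Acadm, the medium-chain acyl-CoA dehydrogenase, was at 585 CPM (565 to 605) and 228 CPM (205 to 252), a log2 ratio of -1.36 (-1.52 to -1.20). Ehhadh, the peroxisomal bifunctional enzyme, was at 93.4 and 14.2 CPM (-2.69), from 528 and 23 UMIs. Acaa2, the last enzyme of the mitochondrial cycle, was at 263 and 72.3 CPM (-1.86), and Hadhb, a subunit of the trifunctional protein, at 514 and 229 CPM (-1.17). Cpt1a, which commits fatty acids to the mitochondrion, was at 135 and 57.5 CPM, while the muscle form Cpt1b had only 60 and 6 UMIs. The abundant uptake genes did not share this: Lpl, the lipoprotein lipase, was at 2116 and 2452 CPM, Cd36, the fatty acid transporter, at 1985 and 1741 CPM, and Fabp3, the heart fatty acid-binding protein, at 755 and 800 CPM. In barcodes below the threshold the median of the same genes was -0.89. The 20 other cardiomyocyte markers had a median of -0.92 there, so the low value was not particular to genes of fatty acid use. The part of the scarcer cardiomyocyte RNA in it was not tested.

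Nuclear-encoded genes of oxidative phosphorylation lay equally low. Of 72 tested of 73, 20 were at least 2-fold lower and 0 at least 2-fold higher, with a median of -0.76. All 72 ratios were below 0, as were 4861 of the 7045 over all tested genes. With median-of-ratios scaling, however, 7 of the 72 were above 0, Uqcrc2 and Atp5a1 included. Cox7a1, the muscle form of a cytochrome oxidase subunit, was at 180 and 52.5 CPM (-1.77, -2.11 to -1.45), and Cox6a2, another muscle form, at 322 and 134 CPM (-1.26). Slc25a4, the main ADP and ATP carrier of heart, was at 854 and 599 CPM, Atp5a1, a subunit of ATP synthase, at 469 and 403 CPM, and Uqcrc2, a core subunit of complex III, at 171 and 167 CPM. In barcodes below the threshold the median was -0.75, where the 20 other cardiomyocyte markers had -0.92. The 13 mitochondrially encoded genes, which the rule limited, summed to 24025 and 13239 CPM.

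The mitochondrial ratios moved with the nuclear and mitochondrial RNA of the barcode. Malat1, an RNA kept in the nucleus, took a median of 4.97% of UMIs outside mitochondrial genes under the wild-type label and 6.05% under the knockout label. Where its share was under 5%, in 2053 and 201 barcodes, the oxidative phosphorylation median was -0.16, and where it was 10% or more, in 418 and 107 barcodes, it was -0.92. By mitochondrial share, the median was -0.74 under 2%, -0.32 at 2 to 5% and 0.29 at 5 to 10%, the last from 291 and 34 barcodes. The fatty acid median went from -0.84 under 2% to -0.27 at 5 to 10%. What part nuclear RNA had in these ratios was not tested. The fetal and stress median held at 1.57, 1.53 and 2.16 over the same mitochondrial ranges, and the Z-disc median at 1.04, 0.70 and 0.82.

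**Figure D4:**
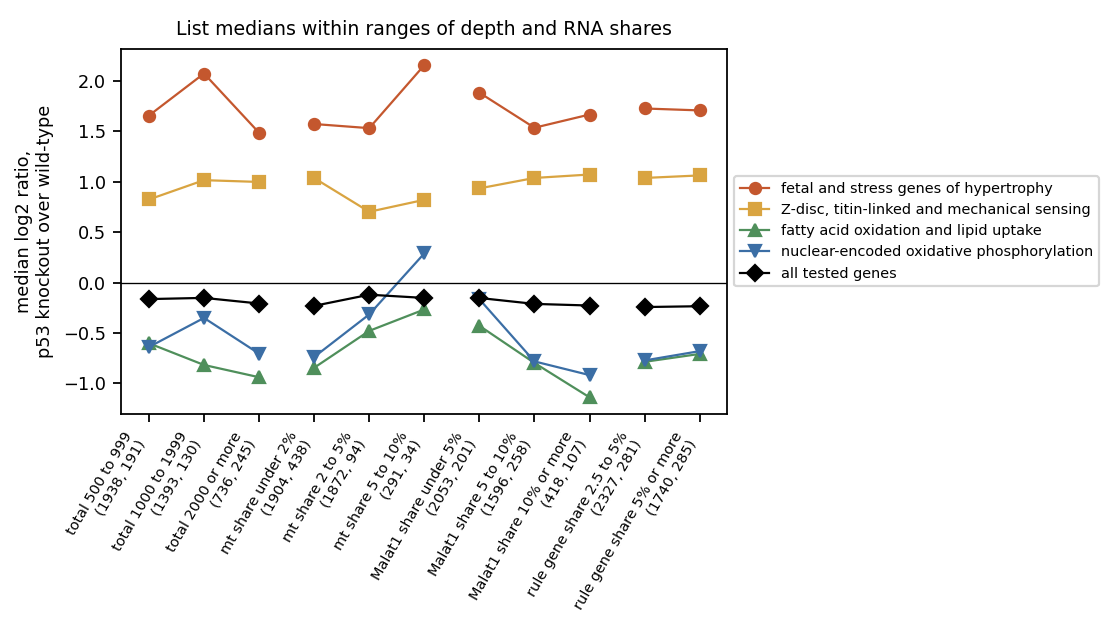
Median log2 ratio of 4 gene groups and of all tested genes within ranges of total UMIs, mitochondrial share, Malat1 share and rule gene share; in brackets the number of barcodes in the 2 libraries, wild-type label first. The fetal and stress and the Z-disc medians stay above 0.70 in every range drawn, whereas the oxidative phosphorylation median runs from -0.92 to 0.29.

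Single genes varied across the same ranges, and some turned. Cox6a2 had a log2 ratio of -1.35 under 2% mitochondrial RNA and 0.34 (-0.088 to 0.72) at 5 to 10%, and Myl2 -0.35 and 0.52 (0.25 to 0.76). Acadm had a log2 ratio of -1.33 under 2% mitochondrial RNA and -0.20 at 5 to 10%, and Ldhb, the lactate dehydrogenase subunit of heart, -1.74 and -1.03. Myh7 had 3.35 and 5.04, and Ankrd1 3.07 and 4.11. By depth, Myh7 had 2.84 in barcodes of 500 to under 1000 UMIs, 3.91 from there to under 2000 and 4.12 at 2000 or more, so that its direction was the same in all 3 ranges. Nppb had 3.85, 3.53 and 3.65.

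Use of other fuels showed a split within lists. Of 20 tested genes of ketone and branched-chain amino acid use 3 were at least 2-fold higher, 1 at least 2-fold lower, and the median was -0.37. The 3 were Oxct1, the enzyme that activates ketone bodies for burning, at 360 and 1166 CPM (1.70, 1.60 to 1.79), Bdh1, which oxidises hydroxybutyrate, at 28.3 and 82.2 CPM (1.54), and Slc16a1, a carrier of lactate and ketones, at 94.8 and 256 CPM (1.44). Of 36 glycolysis and glucose genes 4 were at least 2-fold higher and 3 lower. Pfkp, the platelet form of phosphofructokinase, was at 47.9 and 190 CPM (1.99), Ldhb at 475 and 147 CPM (-1.69), and Pfkfb1, a regulator of glycolysis, at 133 and 21.6 CPM (-2.60). Of 24 citric acid cycle genes 0 were at least 2-fold higher and 1, the carrier Slc25a11, at least 2-fold lower. Their median was -0.40 and turned to 0.080 among genes at 2 times the level below the threshold. That set took in cardiomyocyte genes higher under the knockout label more readily. Ogdh, a subunit of the oxoglutarate dehydrogenase complex, was at 534 and 829 CPM.

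Among regulators, no tested cardiac transcription factor gene lay beyond 2-fold, while Myocd and Hdac5 did. The 31 tested factors had a median of -0.11. Ppargc1a, a coactivator of mitochondrial biogenesis, was at 841 and 1133 CPM, Esrrg, a nuclear receptor of oxidative genes, at 882 and 1092 CPM, and Thra, the thyroid hormone receptor of heart, at 127 and 72.3 CPM. Of 35 calcineurin, MEF2, HDAC and kinase genes 1 lay beyond 2-fold in each direction. Myocd, a coactivator of SRF, was at 745 and 1932 CPM (1.37, 1.31 to 1.44), and Hdac5 at 75.2 and 36.4 CPM. Tead1, a factor that binds the MCAT element, was at 350 and 654 CPM (0.90). Of 35 adrenergic and growth signalling genes 2 were higher and 4 lower, Pde4d, a cyclic AMP phosphodiesterase, being at 4025 and 5216 CPM and Egfr at 34.5 and 7.41 CPM.

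Targets and regulators of p53 went both ways. Of 25 tested of 46 genes 1 was at least 2-fold higher and 2 at least 2-fold lower. The median was -0.35, against -0.25 over all tested genes, and its direction was not stable. By mitochondrial share it was -0.34 under 2%, 0.022 at 2 to 5% and 0.35 at 5 to 10%. By Malat1 share it was 0.12 under 5%, -0.34 at 5 to 10% and -0.26 at 10% or more. Perp, a membrane protein of p53-driven death, was at 17.2 and 36.4 CPM (1.09, 0.59 to 1.57), and Fas, a death receptor, at 45.5 and 16.7 CPM (-1.42, -2.08 to -0.87). In the 213 and 23 barcodes with fewer than 2 UMIs of other cell types Fas had only 7 and 1 UMIs, too few to give a direction. Sesn1, a stress-induced sestrin, was at 285 and 400 CPM, and Mdm2, the ligase that degrades p53, was lower at a log2 ratio of -0.48. Among 9 tested cell cycle genes 0 were at least 2-fold higher and 2 at least 2-fold lower, including Cdkn1b, a cyclin-dependent kinase inhibitor, at 41.6 and 9.88 CPM.

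Other stress lists held single large differences. Of 20 immediate early genes 2 lay beyond 2-fold in each direction, and the median was 0.13. Nr4a1, an inducible orphan receptor, was at 294 and 98.2 CPM (-1.58), Nr4a2 at 78.5 and 6.80 CPM (-3.47), and Ier5 at 13.8 and 90.2 CPM (2.70). Of 15 endoplasmic reticulum stress genes 1, the sensor Atf6, was at least 2-fold higher, at 212 and 481 CPM (1.18). Of 17 hypoxia and angiogenic genes 4 were at least 2-fold higher and 1 lower. Vegfa, the main vessel growth factor, was at 1192 and 1964 CPM (0.72), Ndrg4 at 22.1 and 220 CPM (3.31), and Epas1, the endothelial HIF subunit, at 130 and 53.1 CPM. Of 22 clock genes 2 were higher and 1 lower. Bhlhe40, a repressor in the clock, was at 15.9 and 96.4 CPM, with 43.6 and 246 CPM below the threshold, and Arntl, the clock activator BMAL1, at 36.1 and 11.7 CPM (-1.59).

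The remaining lists lay within 2-fold at their medians. The 40 ribosomal protein genes had a median of -0.50 (0.024 in barcodes of 500 to 1500 UMIs), with 6 at least 2-fold lower. The 23 of oxidative stress and iron had -0.58, with 2 lower, and the 36 of protein turnover -0.16, with 1 lower. These 3 medians turned with the mitochondrial share. At under 2%, 2 to 5% and 5 to 10% the ribosomal median was -0.42, 0.23 and 0.23. The oxidative stress and iron median was -0.59, 0.022 and 0.49, and the protein turnover median -0.23, 0.045 and 0.51. Of 12 nuclear-retained and imprinted long RNAs 2, Neat1 and Snhg11, were at least 2-fold higher and 1, Meg3, lower, with a median of -0.12. Trim63, a ubiquitin ligase of muscle wasting, was at 339 and 663 CPM (0.97), and Fth1, the ferritin heavy chain, at 234 and 132 CPM. Of 29 mitochondrial biogenesis and quality control genes 1, Bnip3, a mitophagy receptor, was at least 2-fold higher, at 59.6 and 136 CPM, and 2 were lower. Of 15 creatine, NAD and oxygen genes 1 was higher and 2 lower. The first was Nmrk2, a muscle nicotinamide riboside kinase, at 6.19 and 85.9 CPM (3.78, 3.25 to 4.37), whereas Nmnat1, a nuclear NAD synthase, was at 96.2 and 24.7 CPM (-1.95). Matrix genes had 4 of 21 higher and 2 lower, led by Thbs1 at 7.08 and 48.8 CPM, which reached 41.8 and 317 CPM below the threshold.

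Beyond the lists, 786 genes had at least 50 CPM in the higher library and at least 2 times the level of the barcodes below the threshold there. Cardiomyocyte genes higher under the knockout label passed this limit more readily, as said above. Highest by ratio after Nppb and Nmrk2 were Cyfip2, a regulator of actin assembly, at 8.14 and 107 CPM (3.70), and Kctd16, an auxiliary subunit of GABA-B receptors, at 21.2 and 267 CPM (3.65). Ppm1e, a protein phosphatase, was at 42.5 and 337 CPM, Tnfrsf12a, the TWEAK receptor, at 20.5 and 112 CPM, Ugp2, which makes UDP-glucose, at 139 and 687 CPM, and Hbegf, an EGF receptor ligand, at 12.9 and 62.4 CPM. In the 213 and 23 barcodes with fewer than 2 UMIs of other cell types Tnfrsf12a had 8 and 0 UMIs, too few to give a direction. A Ugp2 UMI was found in 5.16% and 24.2% of thinned barcodes, against 6.23% and 7.15% below the threshold.

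At the other end stood Avil, an actin-binding protein, at 51.5 and 4.32 CPM (-3.48, -4.90 to -2.51), from 291 and 7 UMIs, and Klhl33 at 126 and 13.6 CPM (-3.19). Between -2.16 and -1.78 lay Impa2, an inositol monophosphatase, Pkd2l2, Ctla4, Rgs2, a brake on G-protein signalling, Chchd7, Tesmin, Ces1d, a carboxylesterase, and BB218582. Ces1d was at 291 and 77.8 CPM and Ctla4 at 161 and 39.5 CPM. Ctla4, which encodes an inhibitory receptor of T cells, was at 24.0 and 4.13 CPM below the threshold. Of the 10 lymphoid markers 2 were at 0 in the gate under the wild-type label and 5 under the knockout label, and among the others Trac had 3 and 0 UMIs and Skap1 28 and 14. Their part in the Ctla4 level was not tested.

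Malat1 took the largest share of the RNA, giving 6.96% and 8.73% of UMIs outside mitochondrial genes. Ttn, titin, gave 2.38% and 2.10%, and Neat1, a scaffold of nuclear paraspeckles, 0.357% and 0.743%. Of the 10 genes with the largest shares, 7 were the same in both libraries. Atp2a2, Pde4d and Tnnt2 stood in the list under the wild-type label without doing so under the other, where Gm42418, Slc8a1 and Fhl2 did. Gm42418, a locus that overlaps ribosomal RNA, was at 3527 and 10176 CPM, with 3837 and 8024 CPM below the threshold.

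Variation between barcodes, as the variance over the mean of counts thinned to 500, had a median over genes of 1.27 under the wild-type label and 1.23 under the knockout label. Ttn (12.5), Malat1 (9.27), Myh6 (8.09) and Dmd (4.21) led under the wild-type label, where Myh7 reached 3.31 at a mean of only 0.0891 UMIs. Under the knockout label Gm10800 (14.7), Ttn (13.2), Malat1 (11.5) and Osbpl6 (6.45) came first, followed by Nppa (6.06), Ankrd1 (6.05) and Xirp2 (6.02). Of the Gm10800 UMIs there 46.0% came from 10 barcodes, and of those of Osbpl6, a sterol-binding protein, 51.0%.

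Against the most similar barcodes, those with 10% or more mitochondrial RNA (536 and 99 barcodes), the fetal and stress median was 1.67 in the gate and 1.0 there, and the Z-disc median 1.08 and 0.63. The fatty acid medians were -0.76 and -0.25, and the oxidative phosphorylation medians -0.76 and -0.22. Myh7 had a log2 ratio of 3.57 in the gate and 3.44 in the mitochondria-rich barcodes, and Ankrd1 2.98 and 2.81. Slc8a1 had 1.40 and 0.25, Myocd 1.37 and -0.55, and Oxct1 1.70 and 0.33. In barcodes with atrial UMIs (27 and 38), Nppa was at 212 and 18361 CPM, from 10 and 2262 UMIs, and Myh7 at 170 and 722 CPM. These differences between sets of barcodes were not tested, since each set is 1 library per label.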

How the data were processed

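The deposited files hold whole-number UMI counts per gene and barcode for 2 libraries. Cell Ranger, Seurat and the build mm10 are named in the submitters' processing notes. The deposited barcodes are written as 3 blocks of 9 bases, and this form was not checked against the kit named in the labels. For versions, filters and counting options, nothing is given in the sources used here. Of all totals deposited, the lowest was 500 UMIs, and whether whole cells or nuclei entered the device is not stated. From the deposited counts, barcodes were selected by the stated rule with no further filter, and UMIs were summed per library, scaled to CPM of UMIs outside mitochondrially encoded genes, and compared as log2 ratios with 0.5 UMI added to each sum (Python 3.11.15, numpy 2.4.6, scipy 1.17.1, pandas 2.3.3, matplotlib 3.10.9). Intervals are exact Poisson for levels, Clopper-Pearson for shares and conditional binomial for ratios. The interval code and the thinning were tested on simulated data. Positions are from GENCODE vM21, which held 32522 of 32589 identifiers.

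The members, the 30 gene lists and the 19 marker lists were chosen with earlier results of these data known. Genes were named by rule: the 12 highest and 12 lowest ratios among genes at 50 CPM or more in the higher library and 2 times the level below the threshold, the 3 most abundant and the extreme members of each list, the 10 genes with the largest shares and the 10 with the highest variance over mean (thinned mean of at least 0.05) per library, Trp53 and the rule genes. Mitochondrial, ribosomal, haemoglobin, sex-linked and unnamed genes were left out of the first. Other named genes were chosen after their values were seen. Some genes that the rule takes are counted in their lists without being named. Alternatives to the gate, scaling, weighting, filter and thinning were run, 3 of them chosen after seeing the data. Results on a few genes are not reported here.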

Additional observations from a re-analysis of the deposited data

How the results depend on the processing

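No paired analysis was possible because each group has 1 library, and for the same reason no replicate could be left out. The fetal and stress median kept its direction under all alternatives run (1.54 to 1.92, against 1.67), as did the Z-disc (0.83 to 1.33) and fatty acid medians (-0.94 to -0.49). The oxidative phosphorylation median stayed below 0 and moved to -0.52 in barcodes of 500 to 1500 UMIs, -0.51 with median-of-ratios scaling and -0.67 with equal weight per barcode. Barcodes in the gate went from 4067 and 566 to 1740 and 285 at a 5% threshold, to 272 under the knockout label at 500 to 1500 UMIs, to 213 and 23 without barcodes holding 2 or more UMIs of other cell types, and, chosen after seeing the data, to 1596 and 258 at a Malat1 share of 5 to 10%, to 1904 under the wild-type label at under 2% mitochondrial RNA, and to 1783 and 199 without any UMI of 10 defining markers. The 193 genes at least 2-fold higher in the p53 KO library and the 715 genes at least 2-fold lower in the p53 KO library became 332 and 383 with median-of-ratios scaling, 392 and 1920 at 5 CPM, 2641 and 5161 with no filter, 2355 and 1735 in the 213 and 23 barcodes (22707 UMIs under the knockout label), 103 and 131 among genes at 2 times the level below the threshold, 505 higher at 500 to 1500 UMIs, 322 higher without defining markers and 256 lower at 50 CPM. The median log2 ratio over all tested genes of -0.25 moved to -0.22 (5% threshold), -0.11 (500 to 1500 UMIs), -0.21 (Malat1), -0.23 (under 2%), -0.17 (defining markers), -0.23 (CPM of all UMIs), -0.22 (equal weight), -0.18 (50 CPM), -0.33 (5 CPM) and -0.27 (no filter), to 0.00 by construction under median-of-ratios scaling, to 0.000799 among genes at 2 times the level below the threshold, and to 0.41 in the 213 and 23 barcodes. There Tfb2m (0.75), Map1lc3b (1.98), Fas (0.75), Meg3 (1.60) and Tnfrsf12a (-1.01) turned sign on 0 to 4 UMIs under the knockout label (Tnfrsf12a on 0, so that its value comes from the added 0.5 UMI). Of the 6678 genes tested there, 1481 had 0 UMIs under the knockout label, so these counts and signs give no direction. The ribosomal median turned to 0.024 at 500 to 1500 UMIs, and the cause was not tested. The citric acid cycle median turned to 0.080 among genes at 2 times the level below the threshold, and the cause was not tested either. That set took in cardiomyocyte genes higher under the knockout label more readily. Of the 10 genes with the highest variance over mean, 6 were shared under the knockout label when barcodes were thinned to 1000.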
